A study of Homo sapiens with 12 samples.

Results

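SOX9 and 8 other genes used as markers of tubular injury and repair were followed in HK-2 cells, 9 of the 19775 genes that carry a symbol of their own on the array. The 9 genes are SOX9, SOX4, HAVCR1, LCN2, SPP1, CLU, VCAM1, PROM1 and CD24. They were taken as a list, with SOX9 included because its level had been seen to be lower at the later time. They are represented by 24 probe sets, of which the one with the highest mean was used for each gene. HK-2 is an established, immortalised line of human kidney proximal tubular epithelium, so all 4 groups come from 1 line. The cells were grown in serum-free medium with EGF, hydrocortisone, insulin, transferrin and selenite, and were near confluence when exposure began. There were 4 groups of 3 biological replicates, with CsA and control each profiled after 12 h and after 48 h, and the controls received vehicle. CsA was taken to stand for cyclosporine A, a calcineurin inhibitor that suppresses the immune system and can harm the kidney, and the labels give no dose. The series aimed at signatures of compounds that are toxic to the kidney.

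The adult tubule repairs itself by having surviving epithelial cells lose their mature features, divide and differentiate again. SOX9 is a transcription factor that is switched on in such cells, and SOX4 is a related factor. HAVCR1 encodes KIM-1, a surface receptor for dying cells, and VCAM1 encodes an adhesion molecule that marks tubule cells whose repair has failed. PROM1 and CD24 encode surface proteins of scattered tubular cells with progenitor features, also seen in regenerating tubules. LCN2, SPP1 and CLU encode the secreted proteins NGAL, osteopontin and clusterin, all of which increase in injured tubules.

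All values are on the log2 scale, and array medians lay between 2.85 and 2.96. Replicates were closer to each other at 12 h, with a median SD over genes of 0.12 in both groups, than at 48 h, with 0.21 for controls and 0.28 for CsA. Proximal tubule markers were expressed in part: of 29 listed, 25 were on the array and 7 reached the level for testing. These were SLC4A4 (9.62 to 11.09), SLC3A1 (7.75 to 8.61), DPP4 (10.57 to 11.62), PAX8 (10.67 to 11.34), CDH16 (5.20 to 6.50), GATM (7.23 to 8.59) and MIOX (8.20 to 10.28). The endocytic receptors and transporters CUBN, LRP2, SLC34A1, SLC22A6 and AQP1 and the brush border enzymes GGT1 and ANPEP did not reach 4 on any array. That level, a value above 4 on at least 3 arrays of a group, was the condition for testing a gene, and 10508 genes met it. All members except PROM1 were above 4 on all 12 arrays, so 8 of the 9 were tested. These are bulk samples, in which fewer cells of a type and less RNA per cell cannot be told apart.

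VCAM1 and LCN2 are known targets of NF-kB, an inflammatory transcription factor, and their promoters are shown because VCAM1 had the largest difference among the members that passed a test and LCN2 the widest spread between replicates. The stretches are the 250 bases before the RefSeq start on GRCh38.p14, chr1:100719492-100719741 (plus strand) for VCAM1 and chr9:128149203-128149452 (plus strand) for LCN2. Capitals mark matches to a loose form of the NF-kB motif (GGG, any 5 bases, then CC), searched on both strands with overlaps allowed.
VCAM1: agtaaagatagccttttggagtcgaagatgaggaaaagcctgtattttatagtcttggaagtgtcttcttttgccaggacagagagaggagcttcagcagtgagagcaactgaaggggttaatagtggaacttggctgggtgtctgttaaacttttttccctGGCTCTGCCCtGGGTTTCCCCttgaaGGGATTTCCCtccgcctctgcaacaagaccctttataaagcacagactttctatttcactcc
LCN2: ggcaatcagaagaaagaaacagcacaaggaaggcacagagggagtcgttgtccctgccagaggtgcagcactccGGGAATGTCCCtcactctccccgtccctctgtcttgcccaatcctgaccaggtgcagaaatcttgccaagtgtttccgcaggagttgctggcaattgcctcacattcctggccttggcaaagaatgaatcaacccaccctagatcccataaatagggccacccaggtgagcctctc
The VCAM1 stretch held 5 matches over both strands, beginning at -88, -77 and -62 from the start. The LCN2 stretch held 2 overlapping matches, beginning at -176 and -175. Of 35116 RefSeq stretches of the same length, 54.4% held at least 1 match, and a match is a description only. The core of the SOX motif, AACAAT, was searched on both strands in 12 stretches of 7 members and was found in 0 of these stretches, against 8.98% of all stretches. AP-1 matches to TGANTCA, on both strands, were found in 2 of the 12 stretches, 1 of LCN2 and 1 of PROM1, against 6.57% of all stretches.

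SOX9 was far lower at 48 h than at 12 h, in controls and under CsA. Control 12 h replicates 1, 2 and 3 gave 8.59, 8.93 and 8.46, and control 48 h replicates gave 4.87, 4.99 and 4.91. Under CsA the replicates gave 8.23, 8.66 and 8.31 at 12 h and 5.14, 6.01 and 6.16 at 48 h. The 12 h and 48 h arrays were thus far apart, while the 48 h groups stood close to the level of 4 that a tested gene had to reach. At 12 h the means were 8.66 ± 0.24 (SD, n = 3) for controls and 8.40 ± 0.23 for CsA. At 48 h the control mean was 4.92 ± 0.06 and the CsA mean 5.77 ± 0.55. The difference between times was -3.74 in controls, a 13.4-fold lower level, and 3 of the 10508 genes had a more negative difference. Under CsA it was -2.63, a 6.20-fold lower level, and 9 genes had a more negative one. Since SOX9 was chosen for this difference, these values are a description and were not tested. Time in culture and any handling that differed between the 12 h and 48 h arrays cannot be told apart.

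**Figure D1:**
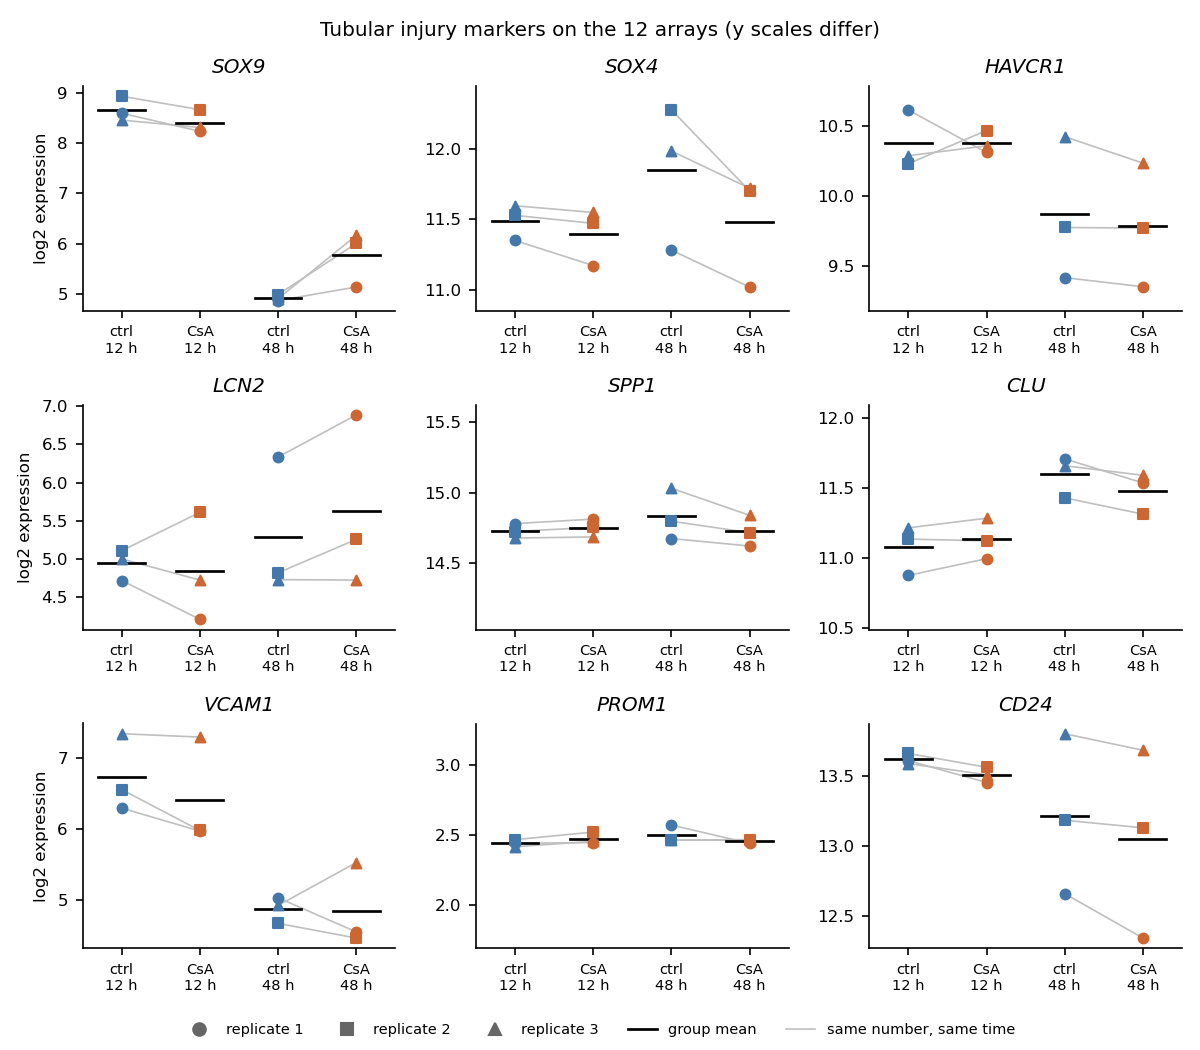
Log2 value of each of the 9 genes on each of the 12 arrays, by group, with 1 point per array and a bar for the group mean of 3 replicates. SOX9 lay between 8.23 and 8.93 at 12 h and between 4.87 and 6.16 at 48 h, and PROM1 stayed between 2.42 and 2.57 throughout.

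The second SOX9 probe set gave the same order of times and another order of treatments. Its values were 8.72, 8.78 and 8.36 in control 12 h, and 4.64, 5.35 and 5.40 in control 48 h. CsA arrays read 7.91, 8.68 and 8.07 at 12 h, and 4.72, 4.95 and 5.28 at 48 h. Its difference between times was -3.49 in controls and -3.24 under CsA. Both probe sets therefore showed the lower 48 h level, and they differed over CsA at 48 h.

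**Figure D2:**
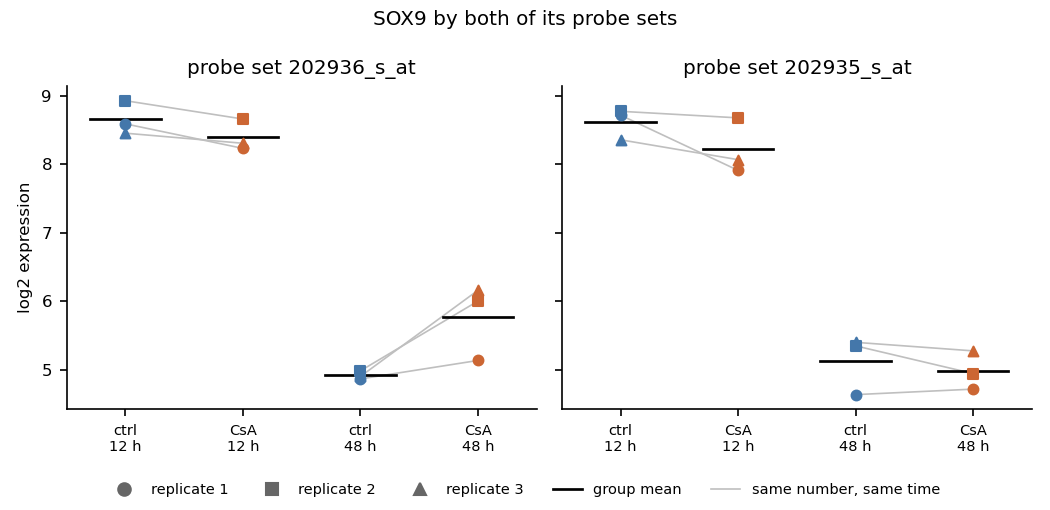
Log2 value of each of the 2 SOX9 probe sets on each of the 12 arrays, with 1 point per array and a bar for each group mean. Both are high at 12 h, and at 48 h the CsA arrays are above the controls for the probe set used (means 5.77 and 4.92) and overlap them for the other (4.98 and 5.13).

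At 48 h the probe set used put SOX9 higher under CsA than in controls by 0.85 (SE 0.24, 95% interval 0.31 to 1.39), a 1.80-fold higher level that did not pass the test (limma, adjusted p = 1.00, and 0.32 with same-numbered arrays as a block). The 3 CsA arrays were all above the 3 control arrays, which held in that direction for 2% of the 10508 genes. The same-numbered pairs differed by 0.27, 1.02 and 1.26. In the other probe set they differed by 0.08, -0.40 and -0.12, with a mean of -0.15, and the groups overlapped. At 12 h the probe set used gave pair differences of -0.36, -0.27 and -0.15 and a mean difference of -0.26 (SE 0.24, interval -0.80 to 0.28, adjusted p = 1.00). The other gave -0.81, -0.10 and -0.29, so that SOX9 was lower under CsA in 3 of 3 pairs by both, with group values that overlapped. The CsA effect at 48 h minus that at 12 h was 1.11 (SE 0.34, interval 0.34 to 1.87) and did not pass the test either (adjusted p = 1.00, and 0.47 with the block). By the second probe set this difference was 0.25.

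SOX4 was high in all 4 groups. Its values were 11.35, 11.53 and 11.60 in control 12 h and 11.28, 12.28 and 11.99 in control 48 h. CsA arrays read 11.17, 11.47 and 11.55 at 12 h and 11.02, 11.70 and 11.72 at 48 h. All 4 groups overlapped. The difference between times was 0.36 in controls (SE 0.26, adjusted p = 0.32) and 0.08 under CsA (adjusted p = 0.85). CsA minus control was -0.09 at 12 h (interval -0.67 to 0.48) and -0.37 at 48 h (interval -0.94 to 0.21), with adjusted p = 1.00 at both times. SOX4 was lower under CsA in all 3 pairs at each time, by 0.18, 0.06 and 0.05 at 12 h and by 0.26, 0.58 and 0.27 at 48 h, and with the pairs as a block the adjusted p at 48 h was 0.35. Of its 6 probe sets 4 passed the filter, and in these CsA minus control was between -0.42 and -0.09 at 12 h and between -0.37 and -0.07 at 48 h, always with overlap. Their differences between times had both signs, from -0.17 to 0.36 in controls. In the filtered sets that were not used, single pairs were higher under CsA, by 0.12, 0.02 and 0.02 at 48 h and by 0.004 at 12 h. The other pairs of these sets were lower.

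HAVCR1 (KIM-1) differed between CsA and control by less than its replicates did. In control 12 h it was 10.61, 10.23 and 10.29, and in CsA 12 h 10.31, 10.47 and 10.36. In control 48 h it was 9.42, 9.78 and 10.42, and in CsA 48 h 9.35, 9.77 and 10.23. At 48 h the replicates set the order in both groups, with number 1 lowest and number 3 highest. CsA minus control was 0.0014 at 12 h (SE 0.26, interval -0.58 to 0.59) and -0.09 at 48 h (interval -0.67 to 0.50), adjusted p = 1.00 at both times. The pairs differed by -0.30, 0.24 and 0.07 at 12 h. At 48 h HAVCR1 was lower under CsA in 3 of 3 pairs, by 0.07, 0.004 and 0.19. With the pairs as a block the SE was 0.11, and the adjusted p was 0.999 at 12 h and 0.76 at 48 h. Without control 48 h replicate 3 the unpaired 48 h difference was 0.19, and without CsA 48 h replicate 1 it was 0.13.  Between times the difference was -0.50 in controls (adjusted p = 0.17) and -0.59 under CsA (adjusted p = 0.15). The CsA 48 h arrays all lay below the CsA 12 h arrays, and those of controls overlapped.

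VCAM1 fell with time in controls. Its values were 6.30, 6.56 and 7.35 in control 12 h and 5.03, 4.67 and 4.92 in control 48 h, with no overlap. In CsA 12 h they were 5.97, 5.98 and 7.30 and in CsA 48 h 4.55, 4.46 and 5.53, again with no overlap, and replicate 3 was the highest in both. VCAM1 has 1 probe set, and its 48 h groups stood close to the level of 4 that a tested gene had to reach. The control difference was -1.86 (SE 0.41), a 3.63-fold lower level (limma, adjusted p = 0.011), and the call held when each of the 6 arrays was left out. Under CsA the difference was -1.57 (SE 0.41), 2.97-fold lower, with adjusted p = 0.032. That call was lost in 5 of 6 omissions. Its adjusted p was 0.054 without CsA 12 h replicate 1, 0.054 without replicate 2 and 0.10 without replicate 3, and 0.10 and 0.094 without CsA 48 h replicates 1 and 2. Without CsA 12 h replicate 3 the value was -1.13. CsA minus control was -0.32 at 12 h (SE 0.41, interval -1.22 to 0.59) and -0.03 at 48 h (interval -0.94 to 0.88), adjusted p = 1.00 for both. VCAM1 was lower under CsA in 3 of 3 pairs at 12 h, by 0.32, 0.58 and 0.05. At 48 h the pairs differed by -0.48, -0.21 and 0.61. With the pairs as a block the SE was 0.20, and the adjusted p was 0.82 at 12 h and 0.96 at 48 h.

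PROM1 (CD133) was not above 4 on any array. It lay between 2.42 and 2.57, below the median of every array, and was not tested. CD24 was high, at 13.61, 13.66 and 13.59 in control 12 h and 13.46, 13.57 and 13.51 in CsA 12 h. At 48 h it was 12.66, 13.19 and 13.81 in controls and 12.34, 13.13 and 13.69 under CsA. At 12 h every CsA array was below every control array, as held in that direction for 6.57% of the genes, with a mean difference of -0.11 (SE 0.33, adjusted p = 1.00). At 48 h the groups overlapped and CsA minus control was -0.16 (interval -0.89 to 0.56, adjusted p = 1.00). Same-numbered arrays lay closer together: CD24 was lower under CsA in 3 of 3 pairs at 12 h (-0.16, -0.10 and -0.08) and in 3 of 3 at 48 h (-0.32, -0.05 and -0.12), and with the pairs as a block the adjusted p was 0.84 and 0.45. Without CsA 48 h replicate 1 the unpaired 48 h difference was 0.19, and without control 48 h replicate 3 it was 0.13. All 6 CD24 probe sets had a negative mean difference at both times. It was between -0.22 and -0.07 at 12 h and between -0.30 and -0.09 at 48 h. In the sets not used, single pairs were higher under CsA, by 0.10, 0.07, 0.04 and 0.03 at 48 h and by 0.04 at 12 h. Their other pairs were lower, and at 12 h the groups of some of these sets overlapped. CD24 between times differed by -0.41 in controls (adjusted p = 0.37) and -0.46 under CsA (adjusted p = 0.35).

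Among the secreted markers, CLU (clusterin, an extracellular chaperone) rose with time in controls. It was 10.88, 11.13 and 11.21 in control 12 h and 11.71, 11.43 and 11.66 in control 48 h, with no overlap. In CsA 12 h replicates 2 and 3 were at 11.12 and 11.28, and replicate 1 stood 0.12 above its control. In CsA 48 h it was 11.53, 11.31 and 11.59, above all CsA 12 h arrays. The control difference was 0.52 (SE 0.13), 1.44-fold (adjusted p = 0.019). The call was lost without control 12 h replicate 1 (0.42, adjusted p = 0.071) and without control 48 h replicate 1 (0.47, adjusted p = 0.068). Under CsA the difference was 0.34 and did not pass (adjusted p = 0.10). CsA minus control was 0.06 at 12 h (interval -0.24 to 0.35) and -0.12 at 48 h (interval -0.41 to 0.18), adjusted p = 1.00 for both. With the pairs as a block the adjusted p was 0.92 at 12 h and 0.50 at 48 h. A further CLU probe set, singled out after its values were seen, was 7.42, 7.21 and 7.20 in control 48 h and 6.93, 6.72 and 6.84 in CsA 48 h. It was lower under CsA by 0.49, 0.49 and 0.37 in the 3 pairs, and in the probe set used the pairs differed by -0.17, -0.12 and -0.07. Its difference between times was 0.39 in controls and -0.10 under CsA, while another CLU probe set gave 0.64 and 0.39, and the fourth did not pass the filter.

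LCN2 (NGAL, which binds iron-carrying siderophores) varied widely between replicates, with an SD of 1.13 in CsA 48 h and 0.90 in control 48 h. It was 4.72, 5.11 and 5.00 in control 12 h and 4.21, 5.61 and 4.72 in CsA 12 h. In control 48 h it was 6.33, 4.82 and 4.73 and in CsA 48 h 6.88, 5.26 and 4.72. Replicate 1 was the highest in both 48 h groups and the lowest in both 12 h groups. LCN2 has 1 probe set, and its lowest values were close to the level of 4 for testing. CsA minus control was -0.09 at 12 h (SE 0.58, interval -1.39 to 1.20) and 0.33 at 48 h (interval -0.97 to 1.62), adjusted p = 1.00 for both. Both of these unpaired intervals hold a rise of 1 on the log2 scale. With the pairs as a block the SE was smaller, 0.20. The adjusted p with the block was 0.97 at 12 h and 0.51 at 48 h. When 1 array was left out the 48 h value ranged from -0.30, without CsA 48 h replicate 1, to 0.85, without control 48 h replicate 1. The difference between times was 0.35 in controls (adjusted p = 0.68) and 0.77 under CsA (adjusted p = 0.38).

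SPP1 (osteopontin, a matrix and cytokine-like glycoprotein that binds integrins and CD44) was bright on all arrays by the probe set used. It was 14.78, 14.72 and 14.68 in control 12 h and 14.81, 14.75 and 14.69 in CsA 12 h. At 48 h it was 14.67, 14.80 and 15.03 in controls and 14.62, 14.72 and 14.84 under CsA. All 12 values lay within 14.62 to 15.03 and the groups overlapped. CsA minus control was 0.02 at 12 h (interval -0.22 to 0.27) and -0.11 at 48 h (interval -0.35 to 0.13), adjusted p = 1.00 for both. The difference between times was 0.11 in controls (adjusted p = 0.49) and -0.03 under CsA (adjusted p = 0.90). The second SPP1 probe set was far less even: it was 6.05, 7.57 and 8.80 in control 48 h and 7.41, 7.49 and 8.83 in CsA 48 h, and lay between 7.06 and 7.88 at 12 h. Its mean CsA minus control was 0.26 at 12 h and 0.43 at 48 h, with overlap. Pair 1 carried both means, since the pairs differed by 0.67, 0.13 and -0.02 at 12 h and by 1.36, -0.08 and 0.02 at 48 h.

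No tested member passed the test of CsA against control at either time, by limma with 4 group means over 12 arrays. At 12 h 0 of 8 were called, against 0% of all 10508 genes, of which 138 had an unadjusted p under 0.05. With same-numbered arrays as a block 0 of 8 were called, against 0.0285% of all genes, which is 3 genes, and 765 had an unadjusted p under 0.05. At 48 h 0 of 8 were called, against 0% of all genes, with 265 genes at an unadjusted p under 0.05 and 1297 with the block, which also called 0. For the difference between the effects 0 of 8 were called, against 0% of all genes, with 162 genes at an unadjusted p under 0.05 and 961 with the block, which called 0. The groups of 1 of the 8 members did not overlap at 12 h (CD24), against 11.9% of all genes, and at 48 h those of 1 did not (SOX9), against 4.49%. The median difference of the 8 members was -0.09 at 12 h and -0.10 at 48 h, beside -0.01 and -0.02 over all genes.

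Over time the members other than SOX9 gave 2 calls of 7 in controls, VCAM1 lower and CLU higher, against 26.2% of all genes, 13.7% lower and 12.5% higher. Under CsA they gave 1 of 7, VCAM1 lower, against 14.4% of all genes and 7.58% lower. The arrays of the 2 times did not overlap for 2 of these 7 members in controls (VCAM1 and CLU), against 50.1% of all genes, and for 3 of 7 under CsA (HAVCR1, VCAM1 and CLU), against 35% of all genes. The time contrast is the one SOX9 was chosen on, so nothing is read from these shares. The CsA and control comparisons over time share no arrays, but they are not independent. Both use the same pooled estimate of the spread of a gene, and same-numbered arrays of the same time deviated together.

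**Figure D3:**
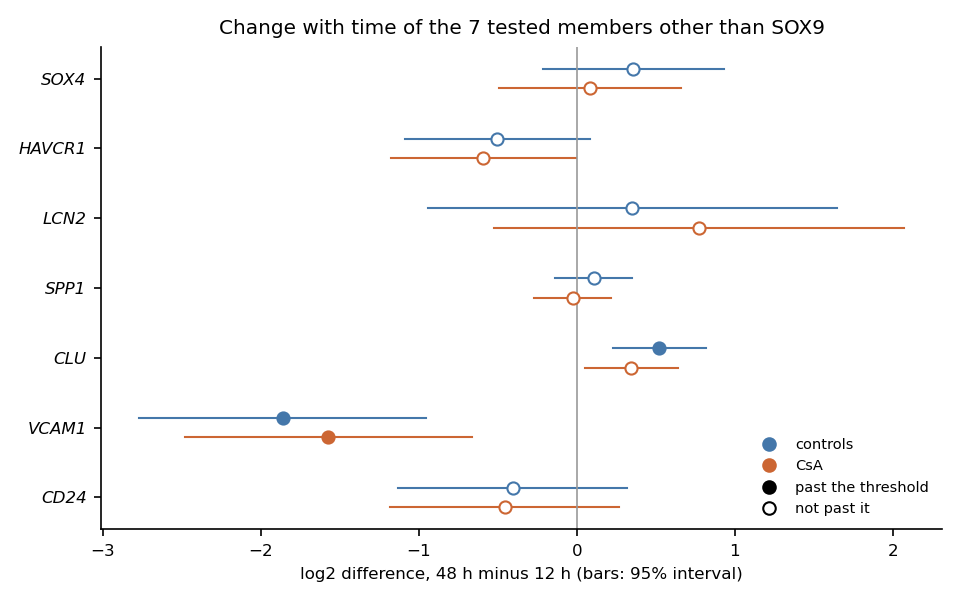
Log2 difference of 48 h minus 12 h (x axis) for the 7 tested members other than SOX9 in controls and under CsA, as points with a line for the moderated 95% interval, filled where the adjusted p is under 0.05. VCAM1 is at -1.86 and -1.57 and CLU at 0.52 and 0.34, and the other members lie between -0.59 and 0.77.

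At 48 h several members differed more between the numbered pairs than between CsA and control. The means of CsA and control in pairs 1, 2 and 3 were 9.39, 9.77 and 10.33 for HAVCR1. For CD24 they were 12.50, 13.16 and 13.75, and for SPP1 14.65, 14.76 and 14.94. The 3 genes rank the pairs alike, with number 1 lowest and number 3 highest. LCN2 ran the other way, with 6.61, 5.04 and 4.73. The range of the pair means was 0.94 for HAVCR1, 1.25 for CD24 and 1.88 for LCN2 at 48 h, and 0.14, 0.08 and 0.89 at 12 h. Their CsA differences at 48 h were -0.09, -0.16 and 0.33. What a replicate number stands for is not given in the labels.

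**Figure D4:**
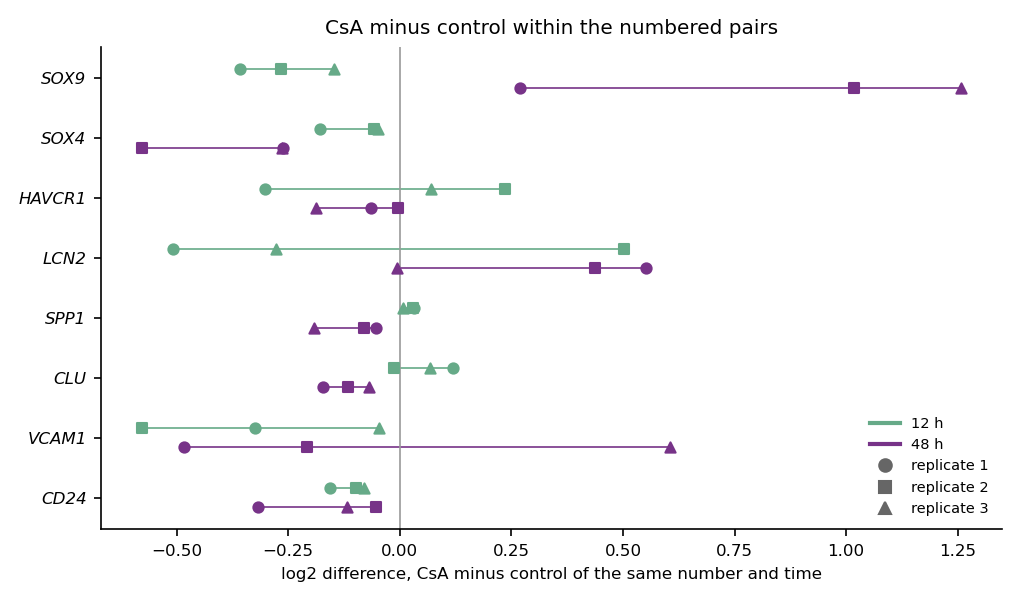
CsA minus control of the same replicate number, in log2 units, for each tested member at 12 h and at 48 h, with 1 point for each of the 3 pairs and a line at 0. Only the probe set used for each gene is shown, and other probe sets of SOX9 and SOX4 had pairs of the other sign at 48 h. SOX9 lies below 0 in all 3 pairs at 12 h and above 0 in all 3 at 48 h (0.27, 1.02 and 1.26), SOX4 lies below 0 in all 6, and LCN2 falls on both sides of 0 at both times.

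The genes whose 12 values followed those of SOX9 most closely, each centred on its own mean, were DPYSL3, LINC00973, FOSL1, NEFL and SKP2. Their root mean square differences from SOX9 over the 12 arrays were 0.52, 0.58, 0.62, 0.62 and 0.66, against a median of 1.66 over 10507 genes. DPYSL3, a cytoskeletal regulator of neurons, had means of 10.85 and 10.54 in control and CsA at 12 h and 8.02 and 7.98 at 48 h. FOSL1, the AP-1 subunit FRA-1, had 8.37 and 8.28 at 12 h and 5.66 and 5.55 at 48 h. SKP2, a ubiquitin ligase subunit that acts in cell division, had 10.09 and 9.87 at 12 h and 7.35 and 7.89 at 48 h. Among the members VCAM1 was the closest to SOX9, at rank 78 with 0.95, and LCN2 the most distant. The measure carries the lower 48 h level on which SOX9 was chosen, so genes that fell steeply with time stand close to it. Only 69 genes had a more negative time difference than VCAM1 in controls, and 95 under CsA. The closeness is a description, and a shared regulation was not tested.

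Genes around the members were taken from lists. In all 12 lists CsA gave 0 calls at 12 h, at 48 h and in the difference between the effects, with and without the block. Over all genes the share called in these comparisons was at most 0.0285%. Of 18 further SOX genes 3 were tested (SOX12, SOX13 and SOX15), and none was called in any comparison. Over time 26.2% of all genes were called in controls and 14.4% under CsA, and 3 tested genes are too few to set beside these. Of 14 cartilage genes that SOX9 is known to activate 3 were tested, and 1 was called over time in controls and 0 under CsA. These are 33.3% and 0% of the 3, beside the same 26.2% and 14.4%. CYTL1, a secreted protein, rose in controls by 0.65 (SE 0.15, adjusted p = 0.013), a call lost without control 12 h replicate 2 (0.55, adjusted p = 0.052) and without control 48 h replicate 1 (0.59, adjusted p = 0.051). The median difference of these 3 genes was -0.19 in controls, beside 0.01 over all genes.

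Among 18 receptors and partners of the surface and secreted markers 10 were tested. In controls 2 rose with time and 2 fell, 4 of 10 beside 26.2% of all genes. ADAM17, the protease that sheds surface proteins, rose by 1.02 (adjusted p = 0.016), and VLDLR rose by 0.74 (adjusted p = 0.035). LRP8 fell by 1.72 (adjusted p = 0.034), and ITGA4, a subunit of the VCAM1 receptor, fell as well, from a mean of 5.01 to 4.09. ITGA4 was near the limit for testing at 48 h, with 3.93, 4.16 and 4.19 in controls and 3.62, 4.04 and 4.45 under CsA, so its differences rest on levels that the filter admitted through the 12 h groups. Under CsA 0 rose and 2 fell, 2 of 10 beside 14.4% of all genes, with differences of -1.78 for LRP8 (adjusted p = 0.045) and -1.02 for ITGA4. Neither 48 h group of ITGA4 met the filter by itself, which favours a fall. Its differences are therefore a description, and its place in the counts of both comparisons is no support. When 1 array of the compared groups was left out, the call was lost in 3 of 6 omissions for ADAM17 (adjusted p up to 0.059). It was lost in 5 of 6 for VLDLR (up to 0.11) and for LRP8 in controls (up to 0.12) and under CsA (up to 0.14). The second LRP8 probe set gave -1.22 in controls (adjusted p = 0.13) and -1.46 under CsA (0.11). The median difference was 0.09 in controls and -0.05 under CsA.

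Of 18 proteins measured in urine as signs of kidney injury 11 were tested, with 3 rises and 0 falls over time in controls and 2 rises and 0 falls under CsA. These are 27.3% and 18.2% of the 11, beside 26.2% and 14.4% of all genes. GDF15, a stress-induced hormone, rose by 2.41 in controls (SE 0.33, adjusted p = 0.0018), a call that held in all 6 omissions, and by 1.44 under CsA (adjusted p = 0.022), a call lost in 4 of 6 (adjusted p up to 0.079). As the mean of all its probe sets GDF15 rose by 0.90 in controls (adjusted p = 0.0036) and 0.54 under CsA (0.038). GPNMB, a membrane glycoprotein, rose by 1.71 in controls (adjusted p = 0.015) and 1.52 under CsA (adjusted p = 0.035). IGFBP7, a urinary marker of tubular cell cycle arrest, rose by 0.60 in controls (adjusted p = 0.018). The GPNMB call in controls was lost without control 12 h replicate 3 (1.38, adjusted p = 0.058) and without control 48 h replicate 1 (1.51, 0.056), and under CsA in 5 of 6 omissions (adjusted p up to 0.12). The IGFBP7 call was lost without control 12 h replicate 3 (0.51, adjusted p = 0.070) and without control 48 h replicate 2 (0.56, 0.062), and its second probe set gave 0.40 (0.15) and the mean of all its probe sets 0.28 (0.42). The median difference of the 11 was 0.10 in controls and 0.22 under CsA.

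Of 42 genes of injured or failed-repair tubule 37 were tested, and over time 3 rose and 6 fell in controls, while 1 rose and 3 fell under CsA. These are 24.3% and 10.8% of the 37, beside 26.2% and 14.4% of all genes. ATF3, a stress-induced transcription factor, rose by 5.35 in controls (SE 0.83, adjusted p = 0.0025), from 6.51 to 11.87, and by 2.89 under CsA (adjusted p = 0.044), a call lost in 5 of 6 omissions (adjusted p up to 0.15). PLAT, which encodes tissue plasminogen activator, differed by -1.79 in controls (adjusted p = 0.014) and -2.04 under CsA (adjusted p = 0.014), lower at 48 h in both. Each PLAT call was lost in 1 of 6 omissions, without control 12 h replicate 3 (adjusted p = 0.054) and without CsA 12 h replicate 3 (0.058). PLAUR, the urokinase receptor, differed by -1.87 in controls (adjusted p = 0.017) and -1.81 under CsA (adjusted p = 0.030), calls lost in 3 of 6 and 5 of 6 omissions (adjusted p up to 0.066 and 0.10). The median difference of the 37 was -0.23 in controls and -0.31 under CsA. The other rises in controls were those of KRT20 and CDKN1A, and the other falls those of KRT8, VIM, S100A11 and TPM1. Of 12 tubular progenitor markers 6 were tested, and 1 was called over time in controls and 0 under CsA. These are 16.7% and 0% of the 6, beside 26.2% and 14.4% of all genes. VIM, the intermediate filament vimentin, fell by 0.36 in controls (adjusted p = 0.043). That call was lost in 5 of 6 omissions (adjusted p up to 0.14) and under quantile normalization (-0.28, adjusted p = 0.062) and median centring (-0.38, adjusted p = 0.057).

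Markers of tubule and other kidney cells were read on the same arrays. Of 29 proximal tubule markers 7 were tested, and 3 rose over time in controls (0 fell). This is 42.9% of the 7, beside 26.2% of all genes in either direction and 12.5% higher. SLC4A4, a bicarbonate cotransporter, rose by 0.98 (adjusted p = 0.0052). MIOX, the enzyme that opens the inositol ring, rose by 1.55 (adjusted p = 0.012), and CDH16, kidney cadherin, by 0.63 (adjusted p = 0.018). SLC4A4 also rose under CsA, by 0.77 (adjusted p = 0.022, and 0.091 by its second probe set). This is 1 of 7, beside 14.4% of all genes in either direction and 6.77% higher. The CDH16 call and the SLC4A4 call under CsA were each lost in 3 of 6 omissions (adjusted p up to 0.069 and 0.080). The summed linear level of the 25 proximal tubule markers on the array ranged from 4988 to 6128 in control 12 h, 5034 to 6338 in CsA 12 h, 8214 to 8882 in control 48 h and 6999 to 8180 in CsA 48 h. Only 7 of these 25 reached the level for testing, and on the linear scale the sums rest almost wholly on those 7. DPP4, PAX8, SLC4A4 and MIOX were the brightest, while CUBN, LRP2, SLC34A1, SLC22A6 and AQP1 stayed below 4 on every array. The sums are thus no measure of the whole list. Whether they play a part in the lower SOX9 and VCAM1 levels was not tested. Of 14 leukocyte markers, 12 were on the array and 0 reached the level for testing, with summed levels between 65.0 and 69.4 over all arrays. Fibroblast and pericyte markers, of which 6 of 12 were tested, summed to between 1925 and 3695 over all arrays, and RGS5 rose over time in controls by 1.14 (adjusted p = 0.047), a call lost in 6 of 6 omissions (adjusted p 0.058 to 0.16). Calls over time were 16.7% of the 6 in controls and 0% under CsA, beside 26.2% and 14.4% of all genes. Endothelial markers (3 of 11 tested), podocyte markers (3 of 9) and distal nephron markers (2 of 16) had 0 calls over time. All genes had 26.2% called in controls and 14.4% under CsA. With so few genes tested, nothing is read from these counts. Some genes of these lists were well expressed and others were not. Of the fibroblast and pericyte list, COL1A1 lay between 7.20 and 7.94, DCN between 7.67 and 9.97, LUM between 7.61 and 9.88, RGS5 between 8.59 and 10.72, ACTA2 between 6.20 and 7.31 and THY1 between 4.48 and 4.66, while PDGFRB was below 2.43 on every array. Of the podocyte list, PTPRO lay between 12.61 and 13.14, SYNPO between 5.62 and 6.95 and PODXL between 5.71 and 6.74, while NPHS1 was below 3.01. Of the endothelial list, PECAM1 lay between 4.38 and 5.08, CLDN5 between 4.64 and 5.11 and EGFL7 between 5.32 and 6.31, while CDH5 was below 2.44. The leukocyte marker PTPRC was below 3.12. Whether any of these levels plays a part in the members' values was not tested.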

How the data were processed

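Messenger RNA was measured on 12 Affymetrix arrays. The deposited log2 values were made by the authors with GCRMA, per the submitters' processing notes, which adjusts background, normalises by quantiles and summarises probe sets, and whose version is not given in the sources used here. Log2 was inferred from the range of the values, which were used unaltered. Of 54675 probe sets, 62 were controls and 41091 carried exactly 1 symbol. Genes entered the tests when their brightest probe set exceeded 4 on 3 arrays of at least 1 group. Differences were tested two-sided with limma 3.58.1 in R 4.3.3 (4 group means over 12 arrays, Benjamini-Hochberg over 10508 genes, threshold 0.05). On simulated data for controls over time, with 100 genes changed at each size, 68% of changes of log2 size 1 and 93% of size 2 were recovered. The simulated noise was independent, with the same SD in all groups. It therefore lacked the wider 48 h spread and the pairing of the arrays, and the CsA comparisons were not simulated. Arrays have no read depth, and their number limits the precision. P-values measure the spread between replicates that the labels call biological, pooled over the groups of both times.

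Same-numbered arrays of 1 time deviated together (correlations across genes, for pairs 1 to 3, of 0.37, 0.53 and 0.59 in the 12 h arrays, then 0.78, 0.54 and 0.74 in the 48 h arrays), and the pairing comes from the data. Between times the correlations were -0.14 to 0.23, so numbers pair nothing there. Alternatives were the replicate block, other probe sets, normalizations, filters and variance models, array weights, and leaving out each array. Members and lists were chosen with earlier results of these data known. All members are named. From each list, up to 3 called genes with the largest moderated statistic were named for each comparison, and the 5 genes most like SOX9. Promoter stretches come from RefSeq (GRCh38.p14) and cover 7 of the 9 members. No stretch was available for SOX9, and CLU was left out of the search by its chromosome.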

Additional observations from a re-analysis of the deposited data

Results flagged for a closer look

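By the probe set used, SOX9 differed in the sign of its CsA difference between the times in every pair. CsA arrays were below their same-numbered controls in 3 of 3 pairs at 12 h and above them in 3 of 3 at 48 h. The difference of the CsA effects, 1.11 on the log2 scale, did not pass limma's test (adjusted p = 1.00, and 0.47 with the replicate block). SPP1 did the reverse, with CsA above control in 3 of 3 pairs at 12 h (0.03, 0.03 and 0.01) and below in 3 of 3 at 48 h (-0.05, -0.08 and -0.19). Its difference of effects was -0.13 (adjusted p = 1.00, and 0.68 with the block). The 12 h difference of SPP1 turned to -0.0018 without control 12 h replicate 3 and to -0.0077 without CsA 12 h replicate 1. Both genes were flagged from the members' own values, and the share of all genes with such a change of sign is not given here. Its second probe set did not show this pattern, with pair differences of 0.67, 0.13 and -0.02 at 12 h and 1.36, -0.08 and 0.02 at 48 h. Nor did the second SOX9 probe set change sign in every pair, with -0.81, -0.10 and -0.29 at 12 h and 0.08, -0.40 and -0.12 at 48 h. Its difference of effects was 0.25.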

How the results depend on the processing

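The numbers of members called for CsA at 12 h, at 48 h and in the difference between its effects were 0 under every alternative run, the replicate block within time included, where the tested genes called were 0 to 8, 0 and 0 to 2. Over time, 2 members other than SOX9 were called in controls, 2 with the replicate block over all arrays, 3 with array weights, and 1 to 3 when an array was left out. Under CsA 1 was called, 1 with that block, 0 with no filter on low values, 0 with a fit of the compared groups only, 2 with array weights, and 0 to 2 when an array was left out. The calls gained were those of HAVCR1: -0.62 in controls and -0.63 under CsA with array weights, -0.78 without control 48 h replicate 3 and -0.82 without CsA 48 h replicate 3. Over all tested genes, 2756 were called in controls (1322 to 4981 under the alternatives) and 1508 under CsA (34 to 4291). The time difference of SOX9 was -3.49 in controls and -3.24 under CsA by its second probe set. Of 683 values of single members under alternatives, 0 called values changed sign, 9 lost a call and 4 gained one. Of the values that were not called, 42 changed sign, 33 of them in the CsA comparisons, and at 48 h LCN2 went from 0.33 to -0.30, CD24 from -0.16 to 0.19 and HAVCR1 from -0.09 to 0.19 when 1 array was left out. The causes were not tested. The fit of the compared groups only was not run for the difference between the effects, which uses all 12 arrays. With 3 arrays a group, the 48 h LCN2 difference was smaller than the replicate SD (0.90 in controls, 1.13 under CsA). With same-numbered arrays as a block its SE was 0.20, and it was not called.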
